A study of Sus scrofa with 6 samples.

Results

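The epidermal growth factor (EGF) family and its ERBB receptors were described here in 2 muscles of the Min pig, a Chinese indigenous breed. The members were 9 genes, of which EGF, HBEGF, TGFA, BTC and NRG1 encode ligands and EGFR, ERBB2, ERBB3 and ERBB4 encode receptors. They were chosen by gene symbol, with the LT against ST values of these libraries already known, and all 9 were matched among the 25973 gene IDs with an mRNA transcript in the files. For this reason the LT against ST values of the members are given as a description with no p-value, and how many members were called is stated once, beside the share of all genes, with nothing read from it.

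The study compared longissimus thoracis (LT), a muscle of the back, with semitendinosus (ST), a muscle of the hind limb, to find genes and long non-coding RNAs (lncRNAs) linked to meat quality. Both muscles were sampled from the same 3 pigs of 1 age, all labelled wild type and given no treatment in the labels, so that 3 LT and 3 ST libraries were obtained from rRNA-depleted total RNA. The values were FPKM, fragments per kilobase of a transcript relative to all fragments mapped in the library, summed over the mRNA transcripts of each gene ID. The files hold no counts, so the number of fragments behind a value is unknown. RNA was taken from whole muscle, in which fewer cells of a type and less RNA per cell cannot be told apart.

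Ligands of the EGF family are made as membrane-bound precursors, are released by sheddases and bind ERBB receptor tyrosine kinases, which pair with each other and signal through the RAS and MAP kinase, PI3K and STAT routes. EGF, TGFA and AREG bind EGFR, HBEGF, BTC and EREG bind EGFR and ERBB4, and NRG1 binds ERBB3 and ERBB4. By contrast, ERBB2 has no known ligand and ERBB3 has little kinase activity of its own. In skeletal muscle, neuregulin signaling through ERBB receptors is known for its role at the neuromuscular junction and in muscle spindles, and EGFR signaling for its role in satellite cells.

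The tissue label was first checked against markers. ACTA1, the actin of skeletal muscle, lay between 1768 and 3025 FPKM in the 6 libraries, and CKM, the muscle creatine kinase, lay between 1807 and 2753 FPKM. Of the markers of epithelium, EPCAM stayed under 0.1 FPKM in every library, whereas KRT8 lay between 0.312 and 4.92 FPKM, KRT18 between 0.0146 and 1.18 and CDH1 between 0.1496 and 0.430. The fibre genes placed 1 library apart from its group. TNNT1, the troponin T of slow fibres, was at 1746 FPKM in ST of pig 1, 382 in ST of pig 2 and 2079 in ST of pig 3, against 348, 207 and 246 in LT. TNNT3, the troponin T of fast fibres, was at 1046, 4518 and 161 FPKM in ST of pigs 1 to 3 and at 8127, 7992 and 5185 in LT. ST of pig 2 was thus nearer to LT than the other ST libraries were in both genes. Values without it are given for EGF, HBEGF and ERBB4 and for the counts of calls. They are also given for those genes with a p-value printed below whose call it changed. Across transcripts, the log2 values of ST of pigs 1 and 3 correlated with r = 0.887, whereas ST of pig 2 correlated with them at 0.867 and 0.868 and with the LT libraries at 0.868 to 0.874. Transcripts are not independent, and these values only describe the libraries.

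Across the 6 libraries the members spanned a wide range of level. In order of mean log2(FPKM + 0.1) they were ERBB3, EGF, BTC, HBEGF, EGFR, ERBB2, ERBB4, TGFA and NRG1. A limit of the value listed for ERBB3 is given below. Several neighbours in this order could not be told apart beyond their spread. ERBB3 exceeded EGF in 4 of 6 libraries, in 1 of 3 for LT and 3 of 3 for ST, and EGF exceeded BTC in 3 of 3 LT libraries but 1 of 3 ST libraries. ERBB2 exceeded ERBB4 in 4 of 6 libraries, with a mean difference of 0.34 ± 0.82 (SD, n = 6) on the log2 scale. HBEGF was above EGFR, and ERBB4 above TGFA, in all 6 libraries. TGFA exceeded NRG1 in 3 of 6.

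**Figure D1:**
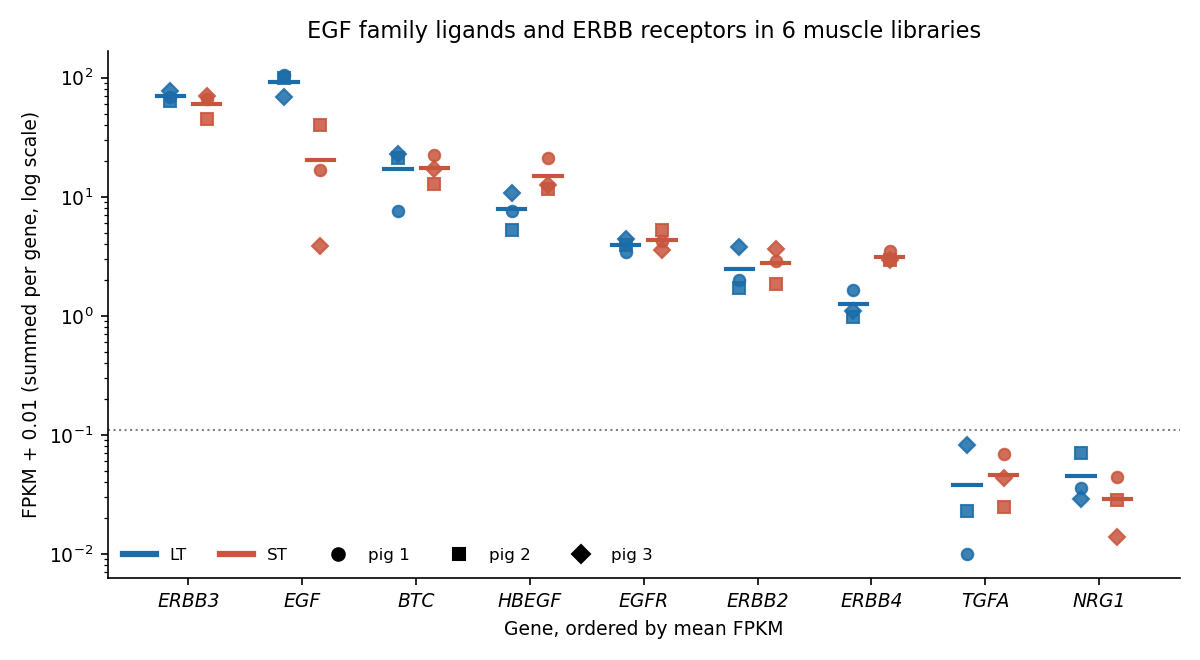
FPKM + 0.01 on a log scale for the 9 members in the 6 libraries, with LT in blue, ST in red, 1 symbol per pig and a bar at the group mean. The dotted line marks the filter of 0.1 FPKM, and the groups do not overlap for EGF, which is lower in ST, or for HBEGF and ERBB4, which are higher in ST.

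EGF (ENSSSCG00000009134), the founding ligand of the family, was the ligand with the highest level in LT. It was at 106 FPKM in LT of pig 1, 100.1 in LT of pig 2 and 68.5 in LT of pig 3, and at 16.8, 40.3 and 3.84 FPKM in ST of the same pigs. The highest ST value, that of pig 2, was below the lowest LT value. The mean was 91.5 ± 20.2 FPKM in LT and 20.3 ± 18.5 in ST (SD, n = 3 each), a level 4.50-fold higher in LT. Within the pigs the LT level was 6.29-fold, 2.48-fold and 17.8-fold that of ST, in order of pig number. The fitted log2 difference, ST minus LT on the log2(FPKM + 0.1) scale, was -2.69 (SE 0.72), and its SE was 0.47 with the pig as a block. Without ST of pig 2 the difference was -3.46 (SE 0.55), and the LT mean was 8.85-fold the ST mean. Without ST of pig 3, the lowest library, the difference was smaller, at -1.78 (SE 0.39). Among all genes tested, EGF stood between the 97.2 and the 98.3 percentile of level in the LT libraries, and at the 88.9, 95.3 and 65.5 percentile in ST of pigs 1 to 3.

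EGF lies on chromosome 8 of the pig genome build Sscrofa11.1, between 112234365 and 112330046 on the minus strand, and 5 transcripts are listed for it. The transcript with the highest mean, ENSSSCT00000054613 with 23 exons, was at 37.5, 70.5 and 51.1 FPKM in LT and at 0, 26.4 and 0 in ST of pigs 1 to 3. Its listing at 0 in ST of pigs 1 and 3 stood beside another transcript, ENSSSCT00000046113 with 22 exons, which was at 13.6, 4.46 and 3.36 FPKM in ST and at 11.3, 22.1 and 0 in LT. The latter held 80.5% and 87.4% of the EGF value in ST of pigs 1 and 3, against at most 22.03% in the other 4 libraries. ENSSSCT00000032398, with 24 exons, was the one transcript above 0 in all 6 libraries, at 57.0, 5.26 and 16.1 FPKM in LT and 3.29, 4.09 and 0.485 in ST. The shares of the transcripts also differed between the pigs within LT, and a value of 0 here can be a failed estimate, so the sum over the gene was used for EGF.

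**Figure D2:**
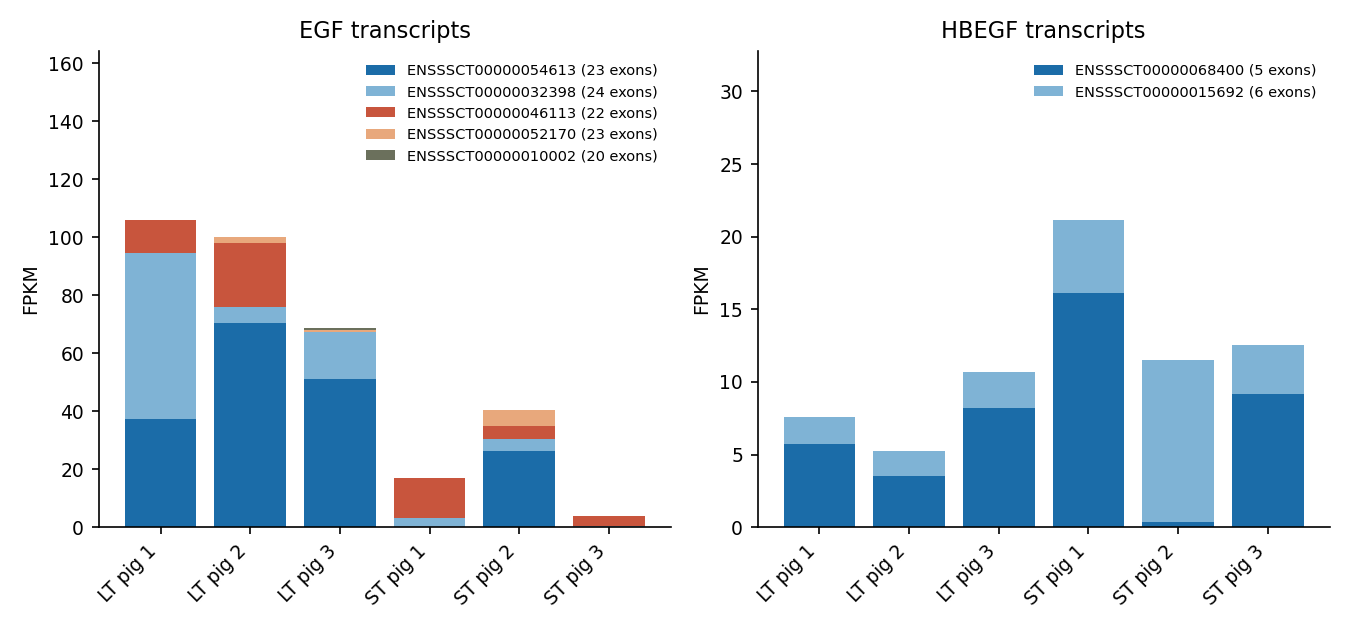
Stacked bars of the FPKM of each transcript of EGF (left) and HBEGF (right) in the 6 libraries, on linear axes from 0. The summed height for EGF is 68.5 or more in LT and 40.3 or less in ST, and in HBEGF the transcript with 6 exons makes up 96.9% of the sum in ST of pig 2 alone.

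HBEGF (ENSSSCG00000014362, chromosome 2, 142102456 to 142115344, minus strand) encodes the heparin-binding ligand of EGFR and ERBB4. Its level was 7.59, 5.26 and 10.6 FPKM in LT and 21.2, 11.5 and 12.6 FPKM in ST of pigs 1 to 3. Every ST library was above every LT library, although the gap between LT of pig 3 and ST of pig 2 was small. The mean was 7.83 ± 2.70 FPKM in LT and 15.1 ± 5.29 in ST (SD, n = 3 each), and the log2 difference was 0.94 (SE 0.32), or 1.11 (SE 0.34) without ST of pig 2. The ST level was 2.79-fold, 2.19-fold and 1.18-fold that of LT in pigs 1, 2 and 3. Of its transcripts, ENSSSCT00000015692 with 6 exons was at 1.83, 1.72 and 2.47 FPKM in LT and at 5.03, 11.2 and 3.41 in ST, without overlap. ENSSSCT00000068400 with 5 exons held between 67.3% and 76.8% of the HBEGF value in 5 libraries and 3.12% in ST of pig 2.

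BTC (ENSSSCG00000008965, chromosome 8, 70649312 to 70697907, minus strand) encodes betacellulin, a ligand of EGFR and ERBB4. It was at 7.52, 21.2 and 23.0 FPKM in LT and at 22.4, 12.7 and 17.0 FPKM in ST, and the groups overlapped. LT of pig 1 was the low library, and the log2 difference of 0.13 (SE 0.43) changed sign among the alternative settings, from -0.38 to 0.56. All 3 of its transcripts were above 0 in all 6 libraries, and ENSSSCT00000057082 held between 51.2% and 68.0% of the gene's value.

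TGFA and NRG1 were near 0. TGFA (ENSSSCG00000008326, chromosome 3, 71948137 to 72050488, plus strand), the transforming growth factor alpha gene, reached 0.0719 FPKM at most, in LT of pig 3, and was listed at 0 in LT of pig 1. NRG1 (ENSSSCG00000015839, chromosome 15, 52627334 to 53688332, minus strand), the neuregulin of the neuromuscular junction, lay between 0.00388 and 0.0607 FPKM, and 4 of its 10 listed transcripts were above 0 in any library. Neither passed the filter of more than 0.1 FPKM in at least 1 library, so they were left out of the fit and 7 of the 9 members entered it.

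Among the receptors, ERBB4 (ENSSSCG00000016160, chromosome 15, 113973037 to 114696375, minus strand) differed between the muscles without overlap. This receptor of neuregulins was at 1.64, 0.976 and 1.10 FPKM in LT and at 3.48, 2.94 and 2.94 FPKM in ST of pigs 1 to 3. All ST libraries were close to each other and above all LT libraries. The mean was 1.24 ± 0.352 FPKM in LT and 3.12 ± 0.309 in ST (SD, n = 3 each), 2.52-fold higher in ST, with a log2 difference of 1.30 (SE 0.24). The ST level was 2.12-fold, 3.01-fold and 2.68-fold that of LT within pigs 1, 2 and 3, and without ST of pig 2 the log2 difference was 1.33 (SE 0.27). ENSSSCT00000027992, with 27 exons, held most of the ERBB4 value in 5 libraries and 43.1% of it in LT of pig 1. This transcript alone was at 0.706, 0.956 and 1.07 FPKM in LT and at 3.08, 2.81 and 2.33 in ST.

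EGFR (ENSSSCG00000022126, chromosome 9, 139300022 to 139478882, plus strand), the receptor of EGF, was at 3.45, 3.90 and 4.42 FPKM in LT and at 4.25, 5.28 and 3.54 FPKM in ST. The groups overlapped, and the log2 difference was 0.14 (SE 0.21), with a range of -0.06 to 0.28 over the alternative settings. ERBB2 (ENSSSCG00000017497, chromosome 12, 22590725 to 22621351, minus strand), the receptor without a known ligand, was at 1.97, 1.69 and 3.79 FPKM in LT and at 2.86, 1.82 and 3.61 FPKM in ST. Its groups overlapped too, with a log2 difference of 0.18 (SE 0.36) that ranged from -0.04 to 0.52. In both muscles pig 2 had the lowest and pig 3 the highest ERBB2 level, and the SE was 0.20 with the pig as a block.

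The value listed for ERBB3 (ENSSSCG00000020725, chromosome 5, 21431656 to 21496279, plus strand) was at 68.8, 64.0 and 76.6 FPKM in LT and at 66.3, 45.4 and 69.7 FPKM in ST. The groups overlapped, although LT was above ST within each of the 3 pigs, and the log2 difference was -0.23 (SE 0.21). In every library 99.957% or more of this value came from 1 transcript, ENSSSCT00000037734. This transcript starts at 21431656, the same base at which the RefSeq annotation of Sscrofa11.1 starts RPS26, a ribosomal protein gene, and 42562 bp before the RefSeq start of ERBB3 at 21474218. Reads of RPS26 and of ERBB3 could not be told apart in it. The other 2 listed transcripts of ERBB3 summed to between 0.00452 and 0.0284 FPKM. The place of ERBB3 at the head of the order of levels rests on the former transcript.

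Across the 19672 genes tested with limma, 113 (0.574%) were called between the muscles, 81 (0.412%) higher and 32 (0.163%) lower in ST. A gene was called where its adjusted p was below 0.05 and its log2 difference exceeded 1 in either direction. This fit leaves out the pairing of the muscles by pig. With quantile normalization, which moved the median log2 difference of all genes from 0.13 to -0.01, 32 genes were higher and 29 lower. None of the 7 members tested was among the 113. With the pig as a block 799 genes (4.06%) were called, 2.84% of those tested higher and 1.23% lower in ST, with ERBB4 among the higher and EGF among the lower. Without ST of pig 2, 991 of 19515 genes (5.08%) were called, 3.31% higher and 1.77% lower, again with ERBB4 and EGF. The groups did not overlap for 3 of the 7 members tested, 2 of them higher and 1 lower in ST, where 24.7% of all genes tested did not overlap, 16.6% higher and 8.08% lower. The members were chosen with this contrast known, so nothing is read from these counts. The median log2 difference was 0.14 over the 7 members and 0.13 over all genes tested, and the differences of BTC and EGFR lay next to the latter.

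The genes whose pattern over the 6 libraries was most like that of EGF were ranked by Pearson r of log2(FPKM + 0.1), among 9338 genes with a symbol and a mean of at least 1 FPKM in either muscle. The points are 2 muscles of 3 pigs, so a difference between the muscles enters every r, and r is given as a description. The 5 highest were MYL11 (r = 0.996), KANSL3 (0.996), TPM1 (0.994), WNT5B (0.992) and BIN1 (0.992). MYL11 is a myosin light chain of fast fibres, TPM1 encodes a tropomyosin of the thin filament, BIN1 shapes the membrane of the T-tubules, WNT5B is a secreted Wnt ligand and KANSL3 belongs to a histone acetyltransferase complex. MYL11 was at 22068, 22740 and 17157 FPKM in LT and at 5220, 13027 and 1625 FPKM in ST of pigs 1 to 3. The 5 lowest were ECHDC1, MALSU1, SLC5A4, SMPD1 and FAXDC2, with r between -0.995 and -0.993. The ranking on EGF fixed a difference between the muscles for these 10 genes, so no test of it is given for them. FAXDC2 was at 1.22, 1.52 and 2.01 FPKM in LT and at 4.53, 2.34 and 9.28 in ST. In all, r was above 0.9 for 201 genes (2.15%) and below -0.9 for 498 genes (5.33%), and the median r was -0.40.

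TNNT3 ranked 7 among the 9338 genes, with r = 0.990, and with each muscle centred on its own mean r was 0.996. ST of pig 2, which had the highest EGF level of the ST libraries, also had the highest TNNT3 level, and ST of pig 3 had the lowest of both. The gene ID ENSSSCG00000029441, which spans the fast myosin genes MYH1, MYH2 and MYH4, was at 6368, 7844 and 5981 FPKM in LT and at 1443, 5873 and 437 FPKM in ST. Slow fibre genes ran the other way. The gene ID labelled MYH6, which also spans MYH7, the slow myosin, was at 614, 530 and 696 FPKM in LT and at 3582, 1014 and 4682 FPKM in ST, with r = -0.956 to EGF, and TNNT1 had r = -0.918. With each muscle centred, r was -0.87 for the MYH6 gene ID and -0.78 for TNNT1. These genes set ST of pig 2 apart and are given without a test. The other members were less like EGF, from r = -0.73 for ERBB4 to 0.13 for EGFR. With each muscle centred, r was 0.13 for ERBB4, 0.72 for EGFR, -0.73 for ERBB2 and -0.84 for the value listed for ERBB3. The order thus changed with the centring, and reads of RPS26 could not be told apart in that ERBB3 value. What part the mix of fibres had in the EGF values was not tested.

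**Figure D3:**
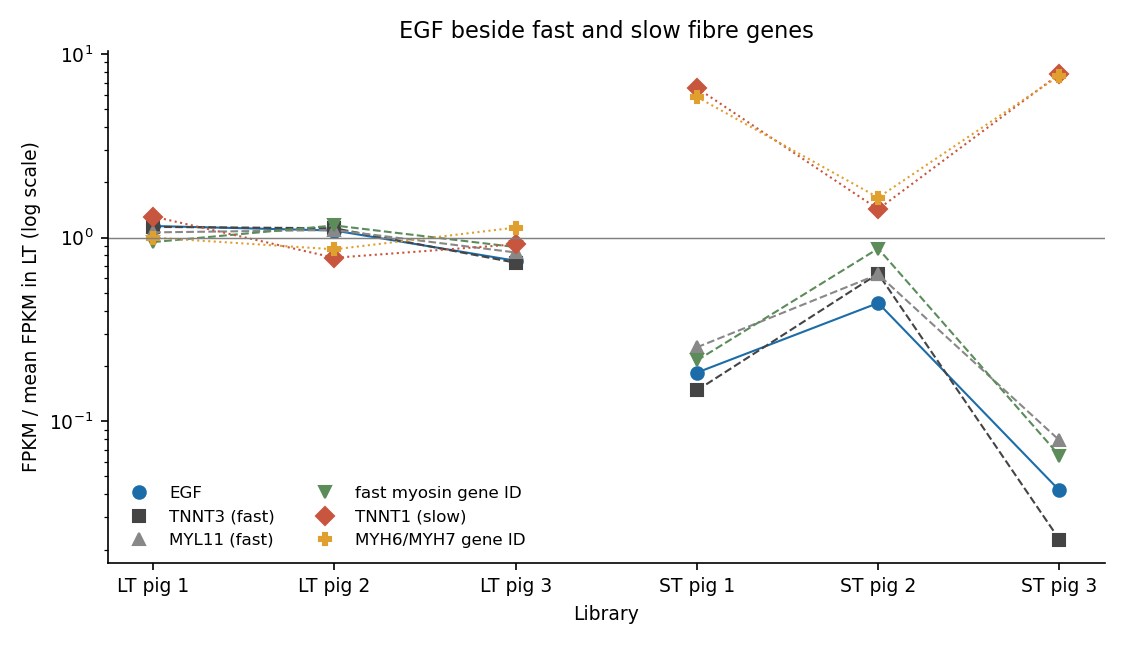
FPKM of each gene divided by its mean in LT, on a log scale, for EGF, 3 fast fibre genes or gene IDs and 2 slow ones in the 6 libraries. Lines join the libraries of a muscle only to guide the eye, and EGF and the fast genes are highest in ST of pig 2 and lowest in ST of pig 3 among the ST libraries.

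Other transcripts of the EGF locus were then examined. ENSSSCG00000042004, a gene ID with 1 transcript that lies 2174 bp beyond the end of EGF on the same strand (chromosome 8, 112229431 to 112232191), was at 5.18, 4.66 and 4.73 FPKM in LT and at 1.18, 2.37 and 0.255 FPKM in ST. Its LT libraries were all above its ST libraries, and its ST libraries stood in the same order as those of EGF. The log2 difference was -2.25 (SE 0.61, limma, adjusted p = 0.113), which was not called. It was called with the pig as a block (adjusted p = 0.0492) and without ST of pig 2 (-2.87, adjusted p = 0.0219). Without ST of pig 3 it was -1.48 (adjusted p = 0.152) and was not called. Whether this RNA is separate from that of EGF was not tested. On the opposite strand of EGF, the 3 transcripts with at least 0.5 of their span inside the gene summed to 3.95, 3.27 and 2.57 FPKM in LT and to 0.451, 1.46 and 0.0806 FPKM in ST, which was 3.51% of the mean EGF level. Among these 3, XLOC_112987, a gene ID that is not annotated, was at 3.75, 3.06 and 2.12 FPKM in LT and at 0.451, 0.698 and 0.0616 in ST. Its log2 difference was -2.86 (SE 0.56, limma, adjusted p = 0.0660), which was not called. It was called with the pig as a block (adjusted p = 0.0190) and without ST of pig 2 (-3.33, adjusted p = 0.0173). XLOC_112987 spans 112236010 to 112330909, nearly the whole of EGF. The 3 transcripts have up to 24 exons, where those of EGF have 20 to 24. Their sum lay between 2.098% and 3.75% of the EGF level in each library. Whether their RNA is separate from that of EGF was not tested. EGF was chosen with this contrast known, so the p-values of XLOC_112987 are only a description. Another opposite-strand transcript, LNC_010622, overlaps EGF with a smaller part of its span and reached 0.350 FPKM at most, in LT of pig 3. Opposite-strand transcripts with at least 0.5 of their span inside the gene were found for 7238 of 9963 annotated genes with a mean of at least 1 FPKM (72.6%). Their median was 7.72% of the sense level.

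**Figure D4:**
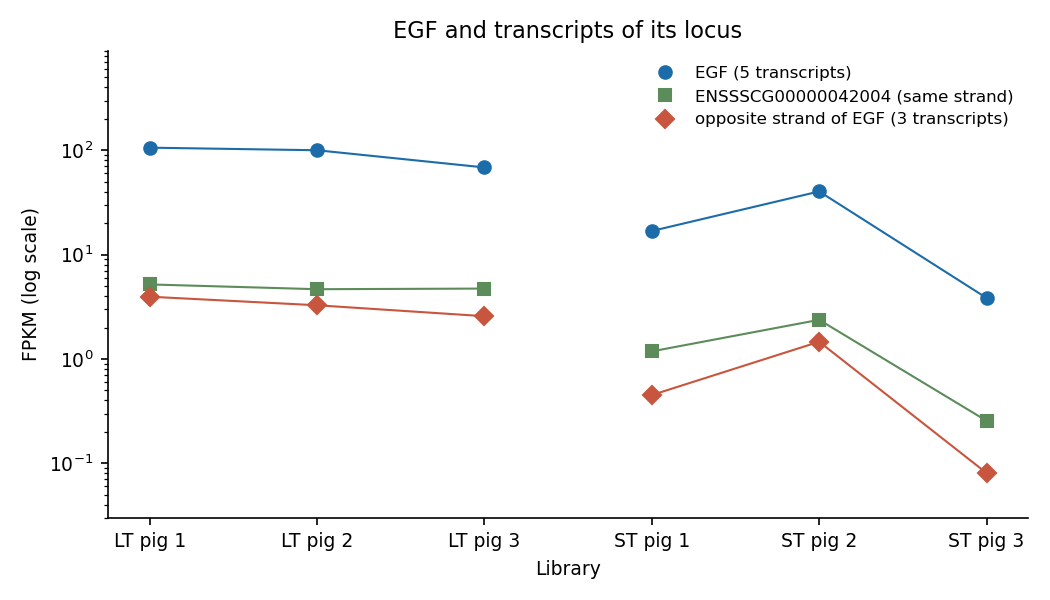
FPKM on a log scale of EGF, of the gene ID that lies 2174 bp beyond its end on the same strand, and of the summed transcripts on its opposite strand, in the 6 libraries. Lines join the libraries of a muscle only to guide the eye, and all 3 series are lower in ST, with ST of pig 3 the lowest.

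Within 100000 bp of the members, 27 annotated genes were tested and none was called. At an unadjusted p under 0.05 there were 5 of 27, where the share of all genes tested was 18.8%. With the pig as a block 2 were called, ENSSSCG00000042004 and PNMT, where the share was 4.06%, and without ST of pig 2 the 2 called were ENSSSCG00000042004 and MYL6, where it was 5.08%. PNMT and MYL6 are named after their values were seen. PNMT, the enzyme that makes adrenaline, lies 27046 bp from ERBB2 and was at 1.301, 1.31 and 3.14 FPKM in LT and at 5.30, 18.6 and 6.52 in ST (log2 difference 2.23, SE 0.51, limma adjusted p = 0.0811, and 0.0452 with the block). Without ST of pig 2, its highest library, the difference was 1.69 (adjusted p = 0.0523). The gene ID labelled MYL6, a myosin light chain gene, spans 21486312 to 21563425 and so overlaps ERBB3 on the same strand. This span also holds ZC3H10 and ESYT1, and whether its values are of MYL6 alone was not tested. The MYL6 gene ID was at 312, 172 and 128 FPKM in LT and at 2291, 179 and 1768 in ST. Its log2 difference was 2.24 (limma, adjusted p = 0.229), and 3.40 without ST of pig 2 (adjusted p = 0.00574). Of all 52102 transcripts tested one by one, 76 (0.146%) were called, 2 (0.00384%) with the block, and 9.69% had an unadjusted p under 0.05. Of 26 lncRNA transcripts in these windows 25 were tested, none was called with or without the block, and 3 had an unadjusted p under 0.05. These were LNC_010538, which overlaps BTC on the opposite strand, LNC_006345 near HBEGF and ENSSSCT00000068905 near BTC. LNC_010538 and LNC_006345 passed the filter only through the muscle in which they were high, so their p-values are not independent of it. LNC_010538 was at 0.127, 0.1002 and 0.261 FPKM in LT and at 0, 0 and 0.00584 in ST, with an adjusted p of 0.382 by limma.

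The other genes of the pathway were taken from 5 lists, with 77 genes listed, 72 matched and 70 tested. The lists were chosen with earlier results of these data known, so their counts and p-values are given as a description. Of these 70 genes 2 were called, both higher in ST, where 0.574% of all genes were called, and 9 were called with the pig as a block, 8 higher and 1 lower, where 2.84% were higher and 1.23% lower. The 2 genes were SPRY4, an inhibitor of the signal behind the receptors, and AREG, a ligand of EGFR that passed the filter through ST alone, so that 1 call did not depend on the filter in this way. Without 1 library the number called was 0 without LT of pig 1, LT of pig 3 or ST of pig 1, 1 without LT of pig 2, 6 without ST of pig 2 and 2 without ST of pig 3. Over all genes, the same fits in this order called 18, 12, 17, 14, 991 (5.08%) and 22. At an unadjusted p under 0.05, 20 genes were higher and 6 lower in ST, against 13.0% and 5.75% of all genes tested, 18.8% in either direction. The median log2 difference of the 70 genes was 0.40.

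Among the other EGF family ligands 3 of 5 matched genes were tested, and 1 was called higher in ST, where 0.412% of all genes were. AREG, which encodes amphiregulin, was at 0.0221, 0.0202 and 0.0341 FPKM in LT and at 1.06, 2.07 and 0.577 FPKM in ST. It was under the filter in all LT libraries and above it in all ST libraries, so it entered the fit through the muscle in which it was high, and its test is not independent of the filter. The log2 difference was 3.25 (SE 0.42, limma, adjusted p = 0.0304), and over the alternative settings the adjusted p ranged from 0.00917 to 0.137. The call was lost with a pseudocount of 1, where the difference was 1.07, with no filter (adjusted p = 0.107), and without LT of pig 1 (adjusted p = 0.1001), LT of pig 2 (0.137), LT of pig 3 (0.0986) or ST of pig 1 (0.120). EREG, which encodes epiregulin, was at 0.395, 0.486 and 0.531 FPKM in LT and at 1.13, 0.603 and 1.59 in ST, with an adjusted p of 0.176 by limma and 0.0359 without ST of pig 2. NRG4, a neuregulin that binds ERBB4, was at 1.41, 2.31 and 0.821 FPKM in LT and at 0.450, 1.02 and 0.271 in ST. Its log2 difference was -1.29 (SE 0.48, adjusted p = 0.203), and it was called lower with the pig as a block (adjusted p = 0.0318). Without ST of pig 2 the difference was -1.73 (adjusted p = 0.0616). The groups overlapped, but LT was above ST within each pig.

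No gene was called among the 11 sheddases and partners of the ligands. ADAM17, the main sheddase of AREG, HBEGF and TGFA, had the largest log2 difference of this list, 0.84 (SE 0.19, limma, adjusted p = 0.0821). It was at 3.95, 2.76 and 3.69 FPKM in LT and at 6.29, 6.03 and 6.27 in ST, without overlap. With the pig as a block its adjusted p was 0.0461, with a difference too small for a call. TIMP3, an inhibitor of ADAM17, had a difference of 0.59 (adjusted p = 0.185), and CD9, a tetraspanin partner of the HBEGF precursor, had -0.75 (adjusted p = 0.151), or -0.996 (adjusted p = 0.0233) without ST of pig 2, which was also too small for a call. The median of the list was 0.16.

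Of the 28 adaptors and kinases none was called with or without the block, and 4 were higher and 4 lower at an unadjusted p under 0.05, where the shares of all genes were 13.0% and 5.75%. HRAS, a small GTPase that passes the signal from the receptors to the MAP kinases, had the smallest p of this list. It was at 44.7, 37.6 and 28.6 FPKM in LT and at 20.6, 21.8 and 21.1 in ST, with a log2 difference of -0.78 (SE 0.20, limma, adjusted p = 0.103). The median log2 difference of the list was 0.15, next to the 0.13 of all genes.

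The 18 inhibitors of the receptors and their signal held 1 called gene, where 0.574% of all genes were called. At an unadjusted p under 0.05, 10 of the 18 were higher and none lower, where the shares of all genes were 13.0% and 5.75%. The groups did not overlap for 10 of them, all higher in ST, where 16.6% of all genes tested were higher without overlap. The median log2 difference of the list was 0.74, against 0.13 over all genes tested. Because earlier results were known when the list was chosen, these counts only describe it. SPRY4, a Sprouty protein that dampens RAS and MAP kinase signaling, was at 0.274, 0.362 and 0.185 FPKM in LT and at 2.98, 2.11 and 2.002 FPKM in ST. It was 8.63-fold higher in ST by means, with a log2 difference of 2.73 (SE 0.28, limma, adjusted p = 0.0118). Over the alternatives its adjusted p ranged from 0.00608 to 0.0759, and the call was lost with no filter and without LT of pig 1 (0.0616), LT of pig 3 (0.0530) or ST of pig 1 (0.0589).

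SPRY1 and LRIG1 had the next smallest p among the inhibitors. SPRY1, another Sprouty gene, was at 8.05, 6.58 and 12.1 FPKM in LT and at 19.8, 22.3 and 25.3 in ST, with a log2 difference of 1.36 (SE 0.24, limma, adjusted p = 0.0597, and 0.0221 with the block). LRIG1, which restrains ERBB receptors at the membrane, was at 7.42, 5.24 and 7.27 FPKM in LT and at 18.0, 11.02 and 24.99 in ST, with a difference of 1.36 (SE 0.31, adjusted p = 0.0770, and 0.0233 with the block). Both were without overlap between the muscles. The fourth inhibitor called with the block, RNF41, a ubiquitin ligase that acts on ERBB3, is named after its values were seen and had a log2 difference of 1.15 (SE 0.27, adjusted p = 0.0878, and 0.0221 with the block). Without ST of pig 2 the same 4 inhibitors, SPRY4, SPRY1, LRIG1 and RNF41, were called. The share of all genes tested that was called higher was 3.31% there and 2.84% with the block. Without that library the log2 difference was 1.37 for SPRY1 (limma, adjusted p = 0.0385), 1.68 for LRIG1 (0.0141) and 1.32 for RNF41 (0.0432).

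Of the 10 transcriptional targets tested none was called, 2 had an unadjusted p under 0.05, where the share of all genes was 18.8%, and 3 were called higher with the pig as a block, where it was 2.84%. MYC, a transcription factor of growth, was at 1.88, 4.35 and 0.911 FPKM in LT and at 3.25, 12.1 and 3.43 in ST of pigs 1 to 3. Pig 2 was the high animal in both muscles, and ST was above LT within each pig (log2 difference 1.34, SE 0.63, limma, adjusted p = 0.302, and 0.0335 with the block). Without ST of pig 2 the difference was 0.73 (adjusted p = 0.462). CCND1, which encodes cyclin D1, had a difference of 1.01 (SE 0.35, adjusted p = 0.173, and 0.0391 with the block). IER3, an immediate early gene, had 1.11 (SE 0.31, adjusted p = 0.121, and 0.0349 with the block). When a library was left out without the block, the difference ranged from 0.64 to 1.24 for CCND1 and from 0.83 to 1.43 for IER3. Both were lowest without LT of pig 3.

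**Figure D5:**
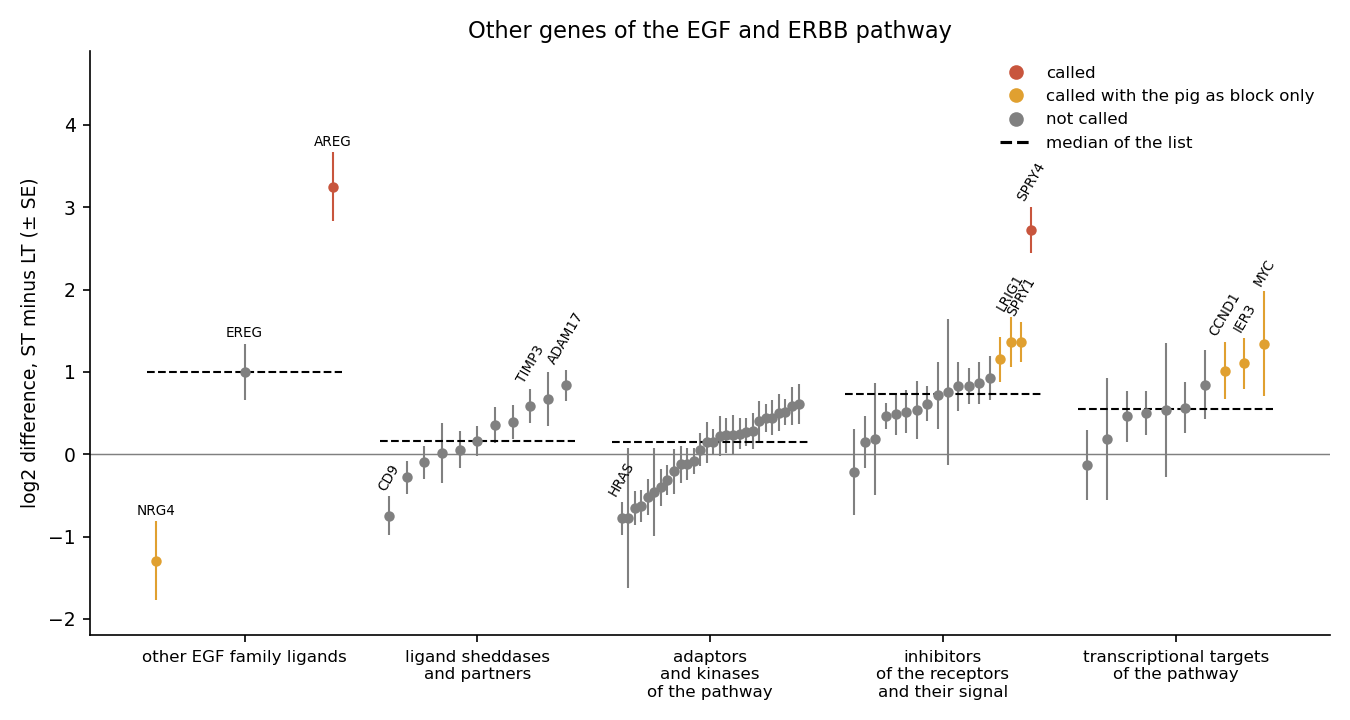
Log2 difference, ST minus LT, with its SE for the 70 tested genes of the 5 pathway lists, each list sorted by value and its median drawn as a dashed line. AREG, which passed the filter of 0.1 FPKM in ST alone, and SPRY4 (both red) were called. With all libraries, 7 further genes (orange) were called with the pig as a block and not without it. The inhibitors have a median of 0.74.

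Markers of other cell types were compared as well, from lists also chosen with earlier results of these data known, so their calls are a description. Of the 6 endothelial markers listed, 5 were matched and tested, and 2 of them were called higher in ST, where 0.412% of all genes were, namely PECAM1 (log2 difference 1.39, limma, adjusted p = 0.0438) and CDH5 (1.22, adjusted p = 0.0408). KDR was called in addition with the block, where 2.84% of all genes were called higher. The endothelial list summed to 76.3, 53.3 and 61.0 FPKM in LT and to 172, 118 and 137 FPKM in ST, with PECAM1 the most abundant and no marker at 0 throughout. The 5 markers of smooth muscle and pericytes summed to 186, 162 and 162 FPKM in LT and to 322, 246 and 319 in ST, with RGS5 the most abundant. RGS5 was called with the block and without ST of pig 2 (log2 difference 1.35, limma, adjusted p = 0.0133), and not with all libraries and no block (adjusted p = 0.0546). ST was thus higher in these sums, as it was in HBEGF, ERBB4, AREG, SPRY4, SPRY1 and LRIG1, and their part in those values was not tested. The 7 Schwann cell markers matched summed to 27.9, 62.3 and 31.0 FPKM in LT and to 43.5, 47.7 and 29.0 in ST, and the 5 satellite cell markers to 32.5, 32.7 and 34.9 in LT and to 23.1, 24.7 and 28.0 in ST. VCAM1 was the most abundant of the latter, at 20.9, 24.3 and 21.1 FPKM in LT and 15.2, 14.7 and 20.7 in ST, while MYF5 was higher in ST within each pig, at 1.05, 0.346 and 0.847 in LT and 1.21, 1.81 and 0.966 in ST. PAX7 and CALCR overlapped between the muscles, and CDH15 was lower in ST without overlap, at 7.84, 6.42 and 10.2 in LT and 3.83, 5.45 and 4.51 in ST. None of the Schwann cell, satellite cell, adipocyte, fibroblast, blood cell or epithelial markers was called with or without the block. The 5 adipocyte markers matched summed to 115, 65.2 and 180 FPKM in LT and to 148, 57.0 and 47.3 in ST, with overlap, and FABP4 was the most abundant. The median log2 difference of this list was -0.92, and LEP, which was above 0.1 FPKM in LT alone, was at 0.185, 0.253 and 0.245 FPKM in LT and at 0.0809, 0.0583 and 0.0389 in ST.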

How the data were processed

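Total RNA of LT and ST from 3 Min pigs was depleted of rRNA and sequenced as directional libraries. Per the methods of the study, reads were filtered with SOAPnuke and mapped with HISAT2 to the build Sscrofa11.1, and StringTie was used for assembly. The authors deposited 1 FPKM value for each transcript and library. FPKM hides the fragment number, so depth was not used. The members and lists were chosen with earlier results of these data known.

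FPKM was summed over the mRNA transcripts of each gene ID. Features that exceeded 0.1 FPKM in any library entered a fit of log2(FPKM + 0.1) on muscle (limma 3.58.1, R 4.3.3, moderated variances with a trend), tested on simulated data first. The p-values were adjusted by Benjamini-Hochberg over all features. Calls required an adjusted value below 0.05 together with a log2 difference beyond 1 in size. The main fit leaves out the pairing of the muscles by pig, and the pig enters as a block in an alternative. The study states that LT and ST came from the same pigs, and the residuals of libraries with the same number correlated at 0.290, 0.261 and 0.292, against a mean of -0.141 for other numbers.

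Symbols came from a table of gene IDs (14658 matched), and NRG4 was matched by position. Named genes were the 9 members, per pathway list the called genes (up to 5) and the 3 smallest p, the 5 genes most and least like EGF, the top transcript of each member, and 3 lncRNAs near a member. Some items chosen by this rule are not reported here. EPGN, AKT1, JUN, IER2 and PHLDA1 were not matched, and NRG2 and NRG3 were under the filter. Alternatives were other pseudocounts and filters, the block, quantile normalization, rescaling to nuclear transcripts, annotated transcripts only, no variance trend and leaving out each library. The block without ST of pig 2 was added after seeing the data.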

Additional observations from a re-analysis of the deposited data

How the results depend on the processing

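The log2 differences of EGF (-3.46 to -1.78), HBEGF (0.67 to 1.19), the value listed for ERBB3 (-0.34 to -0.03) and ERBB4 (0.89 to 1.5002) kept their direction under all 16 alternatives. Those of BTC, EGFR and ERBB2 lay around 0 and did not. The number of genes called, 113, was 6 with no filter on FPKM, 799 with the replicate block, 61 with quantile normalization, 29 without a variance trend, 12 to 991 when a library was left out (18 and 17 without LT or ST of pig 1, 14 without LT of pig 2, 12 and 22 without LT or ST of pig 3, and 991 without ST of pig 2), and 1000 with the replicate block and without ST of pig 2. Of the pathway genes 2 were called, against 1 with a pseudocount of 1, 0 with no filter, 9 with the replicate block, 0 to 6 when a library was left out, and 7 with the block and without ST of pig 2. Of the transcripts 76 were called, against 37 with a pseudocount of 1, 26 with no filter, 40 above 1 FPKM, 2 with the replicate block, 46 to 256 when a library was left out (46 without ST of pig 1 and 256 without ST of pig 2), and 0 with the block and without ST of pig 2, where 9.69% of the 52102 transcripts had an unadjusted p under 0.05 in the limma fit without the block. The causes were not tested. With 3 pigs and no fragment counts, the error of single low values, such as those of TGFA, NRG1 and AREG in LT, could not be given.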

Other observations

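ERRFI1, a feedback inhibitor of EGFR, and FOS, an immediate early gene of the pathway, were looked at after their values were seen. ERRFI1 was at 2.37, 7.10 and 1.28 FPKM in LT and at 2.63, 20.1 and 2.05 FPKM in ST of pigs 1 to 3, so that pig 2 was the high animal in both muscles. FOS was at 126, 80.9 and 90.5 FPKM in LT and at 127, 352 and 120.03 FPKM in ST, with ST of pig 2 the one high library. Neither was called between the muscles (limma, adjusted p = 0.690 for ERRFI1 and 0.318 for FOS). Among the EGFR transcripts, ENSSSCT00000039635 and ENSSSCT00000069349 were above 0 in LT of pig 1 alone, at 1.06 and 0.923 FPKM, and together they made up most of the EGFR value there, while ENSSSCT00000085255, the top transcript of EGFR by mean, was at 0.0208 FPKM in that library and between 1.59 and 2.49 FPKM in the other 5. ENSSSCT00000019050 held between 79.4% and 99.2% of the ERBB2 value. For EGFR the opposite-strand transcripts summed to 17.9% of the sense level, above the upper quartile of 12.6% among the genes with such transcripts, and for ERBB4 they summed to 3.16%, below the lower quartile of 4.44%.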
